A study of Homo sapiens with 11 samples.

Results

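Tissue factor, the 2 classical plasminogen activators and the cell surface proteins that regulate clotting were followed through a time course of low oxygen in RWPE1 cells, an immortalized, non-tumorigenic line of human prostate epithelium. The members were chosen by symbol as F3, TFPI, TFPI2, THBD, PROCR, F2R, PLAU, PLAUR and PLAT, 9 of the 60676 genes in the count table, and all 9 had enough reads to be among the 19981 genes tested. Over the time course F3, which encodes tissue factor, rose 16.9-fold at 6 h and was still 9.25-fold above normoxia at 24 h. PLAU, which encodes urokinase, was 6.93-fold lower at 6 h and 4.62-fold lower at 24 h. TFPI2 and PROCR rose at all 3 times (PROCR at 6 h not in most alternative fits), and F2R fell at 24 h. TFPI fell at 6 h and rose at 24 h, the last not under every scaling and not without the first 24 h library. THBD was called at no time except with scaling by library size alone.

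All cells were grown in keratinocyte serum-free medium with bovine pituitary extract and EGF. The 11 libraries comprised 3 from normoxia (0 h) and 3, 3, and 2 after 6, 12, and 24 h in 1% oxygen. A further 24 h library is not analysed here. The medium of the hypoxic cells also received 10 mM HEPES, so oxygen and buffer cannot be told apart in any comparison with 0 h. RNA above the small RNA size range was made into stranded libraries in a single batch. No label says whether replicates came from separate cultures, and p-values therefore measure only the spread between these samples, which may be technical.

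Clotting outside the vessel starts when tissue factor, a membrane receptor, binds factor VII and the pair activates factor X, which leads to thrombin. TFPI blocks this step, TFPI2 is a related Kunitz-type inhibitor best known for inhibiting plasmin and other serine proteases, and thrombomodulin (THBD) with the endothelial protein C receptor (PROCR) turns thrombin towards activation of the anticoagulant protein C. Thrombin signals to cells through the receptor encoded by F2R. Clots and matrix proteins are degraded by plasmin, which urokinase (PLAU), held at the cell surface by its receptor (PLAUR), and tissue-type plasminogen activator (PLAT) release from plasminogen. Epithelial cells are known to carry tissue factor and the urokinase system, while TFPI, THBD, PROCR and PLAT are best known from endothelium.

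The start sites of F3 and PLAU are shown because these members changed most at 6 and 12 h. F3 (ENSG00000117525) lies on the minus strand of chromosome 1 from 94529173 to 94541759, and PLAU (ENSG00000122861) on the plus strand of chromosome 10 from 73909177 to 73917496, both in GENCODE 44 on GRCh38. Each window spans 250 bases before to 50 after an annotated start, on the strand of the gene, from RefSeq on GRCh38.p14, and capitals mark matches to the letters searched for on both strands. These were the AP-1 motif TGANTCA, the GC box GGGCGG and the cores ACGTG and GCGTG of the hypoxia response element.
F3, chr1:94541710-94542009, minus strand: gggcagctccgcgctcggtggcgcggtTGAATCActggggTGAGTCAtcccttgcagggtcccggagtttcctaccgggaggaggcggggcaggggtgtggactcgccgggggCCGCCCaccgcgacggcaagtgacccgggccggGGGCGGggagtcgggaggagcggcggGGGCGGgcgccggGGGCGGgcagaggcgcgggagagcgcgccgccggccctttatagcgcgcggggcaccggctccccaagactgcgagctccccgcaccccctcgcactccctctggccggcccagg
PLAU, first start, chr10:73910360-73910659, plus strand: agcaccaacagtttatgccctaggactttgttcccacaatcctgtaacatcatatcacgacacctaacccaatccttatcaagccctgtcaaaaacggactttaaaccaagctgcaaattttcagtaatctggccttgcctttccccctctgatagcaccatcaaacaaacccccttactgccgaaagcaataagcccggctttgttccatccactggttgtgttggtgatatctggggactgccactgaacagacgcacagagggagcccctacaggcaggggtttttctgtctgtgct
PLAU, second start, chr10:73910882-73911181, plus strand: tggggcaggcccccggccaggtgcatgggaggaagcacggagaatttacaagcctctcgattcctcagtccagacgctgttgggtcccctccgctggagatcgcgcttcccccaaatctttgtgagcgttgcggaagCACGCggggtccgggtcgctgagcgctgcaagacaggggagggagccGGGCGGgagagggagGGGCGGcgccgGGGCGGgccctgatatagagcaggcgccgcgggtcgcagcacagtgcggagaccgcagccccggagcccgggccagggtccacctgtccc

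The F3 window held 2 AP-1 matches, at -223 and -210 from the start site, and 4 GC boxes, but neither hypoxia response core. Its GC content was 77.3%, against an upper quartile of 68% over all windows. The upstream PLAU window held none of the letters, and the second held 3 GC boxes and 1 GCGTG core, read on the other strand. Of all 35116 windows in the table, 7.71% held AP-1, 45.0% a GC box and 48.4% either core. Windows were given for 6 of the 9 members, 7 windows in all. AP-1 letters were in 3 of them, those of F3, TFPI2 and PLAUR, and a core was in 2, the second of PLAU and that of PLAUR. TFPI held no match and PROCR held 2 GC boxes. A match describes letters only, and the absence of one says nothing of a factor bound elsewhere.

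Between 27496009 and 49488345 reads per library were counted. Scaling factors by TMM, which set the levels in counts per 1000000 reads (CPM), ran from 0.539 in the second 24 h library to 1.32, so that library stood apart from the rest. Basal epithelial markers were abundant, with KRT5 from 6077 to 15881 CPM, and KLK3 of luminal prostate cells was listed at 0 in every library. Of 7 endothelial markers none passed 1 CPM in any library, and their sum was 0.116 to 0.264 CPM at 0 h and 0.130 to 0.642 CPM in hypoxia. Of 5 leukocyte markers CD14 and ITGAM passed 1 CPM, with a sum of 0.832 to 1.25 CPM in normoxia and 2.51 to 4.75 CPM in hypoxia, while PTPRC stayed at or below 0.347 CPM. Of 5 platelet markers ITGA2B and GP1BA passed 1 CPM, with a sum of 7.76 to 9.29 CPM in normoxia and 1.74 to 2.62 CPM in hypoxia, and PF4 was listed at 0. Of 6 fibroblast markers COL1A1 alone passed 1 CPM, with a sum of 47.2 to 60.6 CPM in normoxia and 28.0 to 46.2 CPM in hypoxia. The part of these marker changes in the results was not tested. The sum over 5 hypoxia genes (CA9, SLC2A1, EGLN3, NDRG1 and ANKRD37) was 2110 to 2473 CPM at 0 h and 8098 to 15228 CPM in hypoxia.

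**Figure D1:**
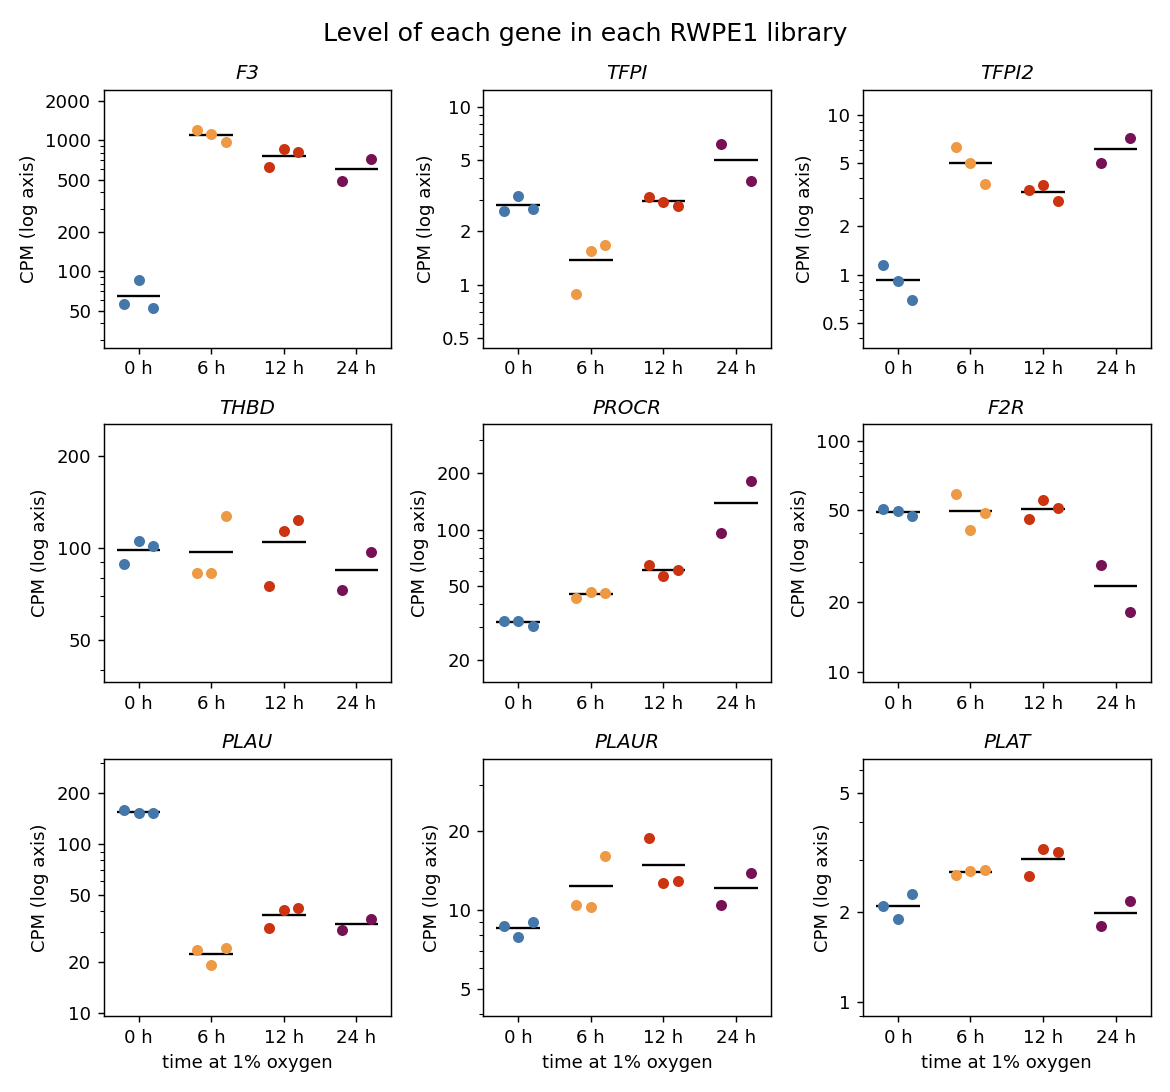
Level of each member in each library, in CPM on a log axis, with points for libraries at 0, 6, 12, and 24 h and a line for the mean. F3 lies between 52.1 and 86.2 CPM at 0 h and above 483 CPM in every hypoxic library, while PLAU goes from at least 153 CPM to at most 41.7 CPM.

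A gene was called where edgeR's quasi-likelihood test, adjusted by Benjamini-Hochberg over all tested genes, gave an adjusted p under 0.05. At 6 h, 5 of the 9 members were called, 3 higher and 2 lower, where 52.8% of all tested genes were called (25.1% higher and 27.7% lower). At 12 h, 6 were called, 5 higher and 1 lower, against 51.2% of all genes (24.2% and 27.1%). At 24 h, 6 were called, 4 higher and 2 lower, against 61.2% of all genes (29.9% and 31.3%). A count of 5 or 6 in 9 is near these shares, and the size of single changes differed more between members. The hypoxic libraries lay wholly above or below the normoxic ones for 7, 6 and 7 members at 6, 12, and 24 h, against 69.6%, 72.3% and 73.0% of all tested genes. F3, TFPI2 and PROCR were called higher at all 3 times, as were 14.8% of all genes, and PLAU was called lower, as were 17.9%. The median log2 fold change of the members was 0.38, 0.53 and 0.51 at 6, 12, and 24 h, beside -0.0021, -0.033 and -0.065 over all tested genes. All 3 comparisons share the normoxic libraries.

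F3 encodes the receptor that starts coagulation. It measured 55.9, 86.2 and 52.1 CPM in the 3 normoxic libraries, from 2168 to 3233 reads. In hypoxia it measured 1202, 1102 and 971 CPM at 6 h, 627, 851 and 808 CPM at 12 h, and 483 and 714 CPM at 24 h. Every hypoxic library was above every normoxic one, the levels of 6 and 12 h did not overlap, and those of 12 and 24 h did. In RNA from whole cultures, a change in the share of cells that express a gene and a change in RNA per cell cannot be told apart.

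The log2 fold change of F3 was 4.08 ± 0.25 (SE, adjusted p = 4.35e-07) at 6 h, 3.56 ± 0.25 (adjusted p = 1.25e-06) at 12 h and 3.21 ± 0.26 (adjusted p = 1.62e-06) at 24 h. By size of increase F3 stood at ranks 108, 146 and 309 of 19981 genes at 6, 12, and 24 h. An increase past 4-fold (log2 over 2) was called for 3.56%, 3.08% and 8.14% of all tested genes at the 3 times. Without the second 24 h library the 24 h value was 2.88 (adjusted p = 1.21e-06).

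TFPI and its relative TFPI2 were both scarce. TFPI, the principal inhibitor of tissue factor with factor VII, measured 2.61, 3.15 and 2.67 CPM at 0 h. It measured 0.888, 1.56 and 1.67 CPM at 6 h, 3.11, 2.93 and 2.79 CPM at 12 h, and 6.20 and 3.81 CPM at 24 h. All 6 h libraries were below normoxia, those at 12 h overlapped it, and both at 24 h were above it.

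TFPI fell by 1.01 ± 0.26 on the log2 scale at 6 h (adjusted p = 0.00597), differed by 0.07 ± 0.25 at 12 h (95% interval -0.48 to 0.61, adjusted p = 0.840) and rose by 0.84 ± 0.28 at 24 h (adjusted p = 0.0191), the last value being -0.012 with scaling by library size alone. The 24 h increase rested on the first 24 h library, without which it was 0.39 (adjusted p = 0.282). It also missed the threshold without the first normoxic library (0.78, adjusted p = 0.0627) and without the third (0.80, adjusted p = 0.0603). With limma-voom and sample quality weights the 24 h value was 0.88 (adjusted p = 0.129). TFPI has a long annotated exonic sequence of 11714 bases, and counts per library ran from 26 to 145 reads.

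TFPI2, the Kunitz-type relative, was barely present in normoxia at 1.16, 0.906 and 0.697 CPM. Hypoxic libraries held 6.25, 4.96 and 3.68 CPM at 6 h, 3.38, 3.62 and 2.90 CPM at 12 h, and 5.01 and 7.14 CPM at 24 h. Every hypoxic library was above every normoxic one, on 29 to 50 reads at 0 h and 100 to 194 in hypoxia. The log2 fold change was 2.42 ± 0.27 (adjusted p = 1.76e-05), 1.83 ± 0.27 (adjusted p = 0.000171) and 2.71 ± 0.29 (adjusted p = 9.97e-06) at 6, 12, and 24 h.

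The ratios of F3 to TFPI and to TFPI2 were also formed within each library. They are log2 of reads per exonic length and do not depend on library scaling. Both use the F3 reads described above, so their p-values are not separate evidence of the F3 rise. F3 to TFPI averaged 6.51 ± 0.25 (SD, n = 3) at 0 h, 11.69 ± 0.63 (n = 3) at 6 h, 10.02 ± 0.30 (n = 3) at 12 h and 8.93 ± 0.89 (n = 2) at 24 h. The 8 hypoxic libraries were 3.86 log2 units above the 3 normoxic ones by an exact two-sided permutation test (p = 0.0121, the smallest this design allows, adjusted p = 0.0145 over 6 ratios). F3 to TFPI2 went from 5.87 ± 0.49 to 7.57 ± 0.23, 7.60 ± 0.30 and 6.37 ± 0.037, a difference of 1.41 (exact permutation p = 0.0121, adjusted p = 0.0145). Both ratios were higher in 8 of 8 hypoxic libraries than in any normoxic one, although for TFPI2 the lowest hypoxic value of 6.35 lay just above the highest normoxic value of 6.31.

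The protein C pathway genes moved apart. THBD, the thrombin-binding cofactor, measured 89.0, 105.7 and 101.6 CPM at 0 h. Hypoxic levels were 82.8, 82.9 and 127.0 CPM at 6 h, 75.3, 113.9 and 124.0 CPM at 12 h, and 73.0 and 97.3 CPM at 24 h. The groups overlapped at each time, and the spread within 6 and 12 h was wider than that between time means. The log2 differences were -0.02 (95% interval -0.48 to 0.45, adjusted p = 0.952), 0.08 (-0.39 to 0.55, adjusted p = 0.775) and -0.21 (-0.74 to 0.31, adjusted p = 0.459). With scaling by library size alone, which moved the median of all tested genes to -0.97 at 24 h, THBD was called lower at 24 h (-1.17, adjusted p = 0.00223).

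PROCR, the receptor that presents protein C, measured 32.4, 32.6 and 30.6 CPM at 0 h. It measured 43.0, 46.5 and 45.8 CPM at 6 h, 64.8, 56.3 and 60.8 CPM at 12 h, and 96.2 and 182.6 CPM at 24 h. Each later group lay wholly above the one before it. The log2 fold change was 0.50 ± 0.19 (adjusted p = 0.0398), 0.93 ± 0.19 (adjusted p = 0.00157) and 2.13 ± 0.21 (adjusted p = 5.57e-06) at 6, 12, and 24 h.

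The 6 h call of PROCR was lost in 11 of 20 alternatives. These were scaling by library size alone (0.18), at least 10 counts in every library (0.42), the replicate block (0.50), and fits in which any one library of 0 or 6 h, or the second or the third of 12 h, was left out, with values from 0.47 to 0.54. The 24 h level differed between its 2 libraries, and without the second, where the level was higher, the log2 fold change was 1.57 (adjusted p = 7.56e-07). The annotation places 12.8% of PROCR exonic bases opposite an antisense gene, which had at most 1 read in any library. The log2 ratio of THBD to PROCR fell from 0.38 ± 0.15 (SD, n = 3) at 0 h to -0.17 ± 0.34, -0.50 ± 0.47 and -1.90 ± 0.36 at the 3 times. By exact permutation the 8 hypoxic libraries differed by -1.10 (p = 0.0242, adjusted p = 0.0242), with 1 library of 6 h inside the normoxic range.

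F2R encodes protease-activated receptor 1, the main thrombin receptor of many cell types. It measured 50.8, 49.7 and 47.4 CPM at 0 h, 58.7, 41.1 and 48.7 CPM at 6 h, and 46.0, 55.3 and 51.3 CPM at 12 h, and these 3 groups overlapped. At 24 h it measured 29.1 and 18.1 CPM, below all other libraries. The log2 fold change was 0.0042 ± 0.18 (95% interval -0.38 to 0.39, adjusted p = 0.986) at 6 h and 0.04 ± 0.18 (-0.34 to 0.43, adjusted p = 0.854) at 12 h. At 24 h F2R fell by 1.06 ± 0.21 (adjusted p = 0.00084), and without the first or the second 24 h library the value was -1.50 or -0.78, both called.

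PLAU encodes urokinase, the plasminogen activator of the cell surface. It measured 159.6, 153.2 and 153.3 CPM at 0 h, from 5748 to 6905 reads. It measured 23.7, 19.2 and 24.4 CPM at 6 h, 32.0, 40.9 and 41.7 CPM at 12 h, and 31.2 and 36.1 CPM at 24 h. No hypoxic library came near the normoxic ones, and the 6 h libraries were the lowest.

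PLAU fell by 2.79 ± 0.15 on the log2 scale at 6 h (adjusted p = 2.76e-07), fell by 2.02 ± 0.15 at 12 h (adjusted p = 1.93e-06) and fell by 2.21 ± 0.18 at 24 h (adjusted p = 1.63e-06). Its p-value at 6 h ranked 15 of 19981 genes, and that of F3 ranked 40. A fall past 4-fold was called for 5.19%, 4.28% and 9.92% of all tested genes at the 3 times. Without the second 24 h library the 24 h value was -2.34 (adjusted p = 1.86e-06).

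The annotation places 31.0% of PLAU exonic bases opposite exons of C10orf55, and whether reads were counted by strand is not given in the sources used here. C10orf55 had 34 to 52 reads at 0 h and 1 to 10 in hypoxia, which is 0.151% to 0.96% of the PLAU reads of the same library. Its log2 fold change was -3.33, -2.65 and -2.38 at the 3 times. Reads of the 2 genes cannot be told apart where they overlap without strand.

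PLAUR, the urokinase receptor, measured 8.69, 7.86 and 8.99 CPM at 0 h. It measured 10.5, 10.3 and 16.1 CPM at 6 h, 18.9, 12.7 and 12.9 CPM at 12 h, and 10.5 and 13.8 CPM at 24 h. Every hypoxic library was above the normoxic ones, with a wide spread within each time. The log2 fold change was 0.53 ± 0.22 (adjusted p = 0.0552) at 6 h, 0.80 ± 0.22 (adjusted p = 0.00886) at 12 h and 0.51 ± 0.24 (adjusted p = 0.0858) at 24 h, and of these the 12 h value alone passed the test. With scaling by library size alone that call was lost (0.32, adjusted p = 0.231) and the 24 h value was -0.45 (adjusted p = 0.129). The 6 h value passed in 7 of 20 alternatives.

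PLAT, the tissue-type activator, was scarce at 2.10, 1.89 and 2.31 CPM at 0 h. It measured 2.67, 2.76 and 2.77 CPM at 6 h, 2.64, 3.26 and 3.18 CPM at 12 h, and 1.80 and 2.18 CPM at 24 h. The 6 and 12 h libraries were above normoxia, and those at 24 h overlapped it. The log2 differences were 0.38 ± 0.19 (adjusted p = 0.115), 0.53 ± 0.19 (adjusted p = 0.0354) and -0.09 ± 0.23 (adjusted p = 0.759). The 12 h call was lost in 9 of 20 alternatives. It was lost without any one of the normoxic libraries or without the second or the third of 12 h, with values from 0.44 to 0.59. It was also lost without a filter on low counts (0.51, adjusted p = 0.172) and with at least 10 counts in every library (0.42, adjusted p = 0.0582). With scaling by library size alone PLAT was 0.063 at 12 h (adjusted p = 0.817) and was called lower at 24 h (-1.03, adjusted p = 0.00291).

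**Figure D2:**
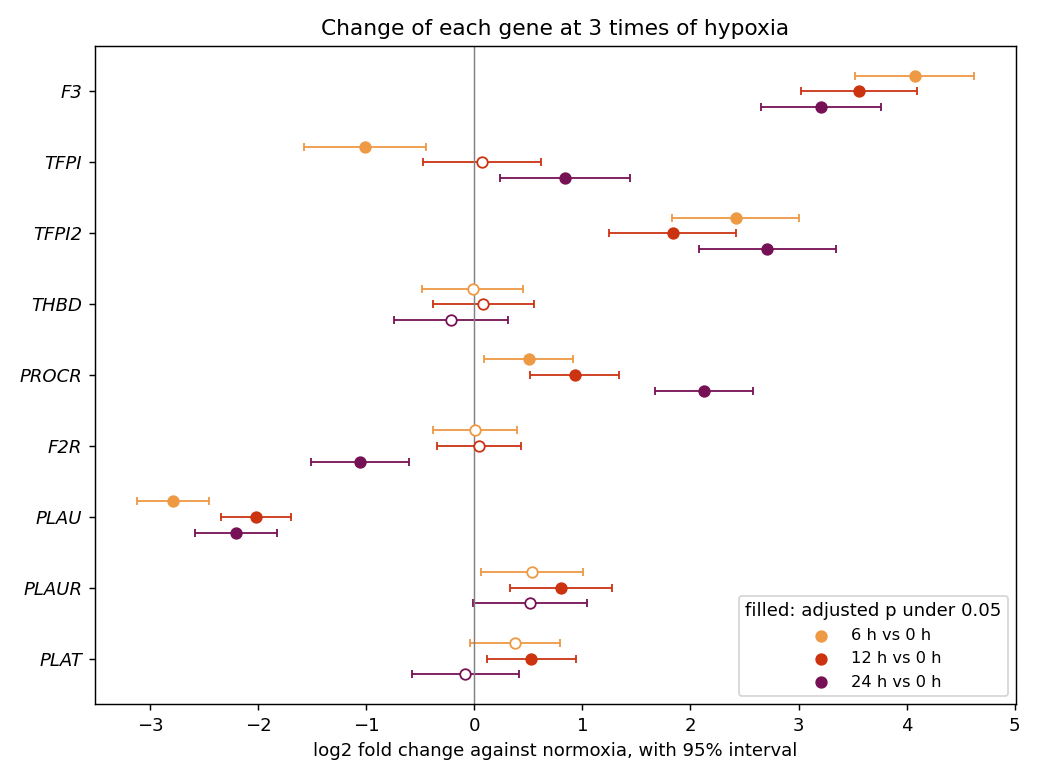
Log2 fold change of each member against normoxia at 6, 12, and 24 h, with 95% intervals from the edgeR fit, filled where the adjusted p was under 0.05. F3 and TFPI2 lie to the right and PLAU to the left at all 3 times, TFPI crosses from -1.01 to 0.84 (-0.012 at 24 h with library size alone), and the 3 THBD intervals span 0.

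Urokinase changed against its sister enzyme and its receptor. The log2 ratio of PLAU to PLAT was 7.60 ± 0.14 (SD, n = 3) at 0 h and 4.42 ± 0.20, 5.05 ± 0.059 and 5.46 ± 0.049 at 6, 12, and 24 h. PLAU to PLAUR went from 4.79 ± 0.096 to 1.49 ± 0.29, 1.97 ± 0.54 and 2.07 ± 0.14.

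Over the 8 hypoxic libraries these ratios differed by -2.69 and -2.97 log2 units, each lower in 8 of 8 libraries than in any normoxic one (exact two-sided permutation p = 0.0121, adjusted p = 0.0145 over the 6 ratios computed). As folds these are 6.43 and 7.83 lower. Both ratios use the PLAU reads described above, so their p-values are not separate evidence of the PLAU fall.

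**Figure D3:**
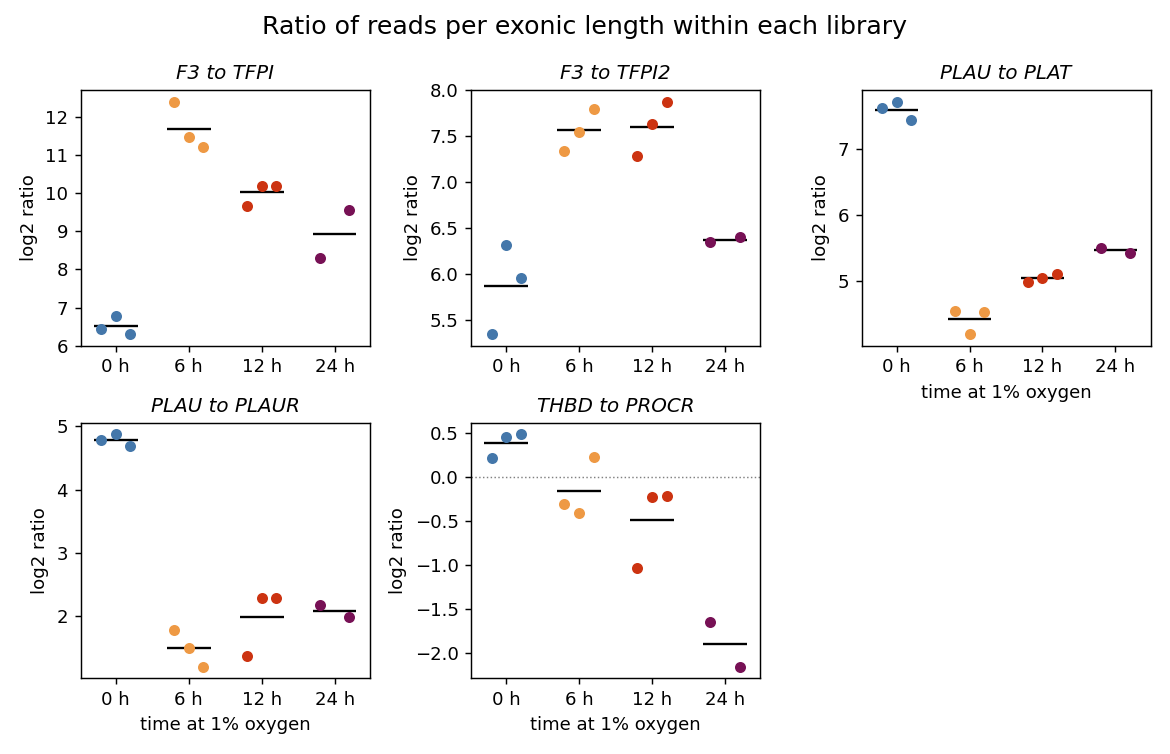
Log2 ratio of reads per exonic length for 5 gene pairs within each library, by time, with a line for the mean and a dotted line at equal levels where the axis reaches it. The 2 F3 ratios lie higher and the 2 PLAU ratios lower in all 8 hypoxic libraries, and THBD to PROCR drops furthest at 24 h, to -1.90.

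The order of the members by level per length (RPKM, CPM per kilobase of exon) changed with time. In normoxia PLAU led at 52.7 ± 1.24 RPKM (SD, n = 3), apart from THBD at 24.5 ± 2.15. THBD, F3 at 22.4 ± 6.47 and PROCR at 18.8 ± 0.656 followed with overlap between neighbours, then F2R at 12.4 ± 0.436 and PLAUR at 1.91 ± 0.131. TFPI2, PLAT and TFPI came last between 0.240 and 0.376 RPKM, each overlapping its neighbour. The order of these depends on their annotated exonic lengths of 2444, 7770 and 11714 bases. In CPM it was reversed, with means of 0.920, 2.10 and 2.81 CPM.

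At 6 h F3 led at 378 ± 40.1 RPKM, far above PROCR at 26.6 ± 1.09 and THBD at 24.1 ± 6.32, which overlapped. PLAU, at 7.60 ± 0.961 RPKM, had moved below F2R. F3 also led at 12 h with 264 ± 41.2 RPKM and at 24 h with 207 ± 56.6 RPKM (n = 2). PROCR came next at both times, with means of 35.7 and 82.1 RPKM, apart from THBD. PLAU and F2R overlapped at 12 h, at 12.95 and 12.81 RPKM, and TFPI was last at 6 and 12 h but above PLAT at 24 h.

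Changes within hypoxia compare media that all held HEPES. From 6 to 12 h 2 members were called, both higher, against 4.95% of all tested genes (1.88% higher). TFPI rose by 1.08 ± 0.26 (adjusted p = 0.0371) and PLAU by 0.77 ± 0.15 (adjusted p = 0.0161). Both calls were lost with scaling by library size alone (0.93, adjusted p = 0.144, and 0.62, adjusted p = 0.0853). Neither call held in every leave-one-out fit. TFPI lost it without any one normoxic library, without the first or second of 6 h, or without any of 12 h (0.86 to 1.17), and PLAU without the second of 6 h or the second or the third of 12 h (0.67 to 0.71). The difference of F3 was -0.52 ± 0.22 (adjusted p = 0.206).

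From 12 to 24 h 3 members were called, against 28.4% of all genes (15.1% higher and 13.3% lower). PROCR rose by 1.20 ± 0.21 (adjusted p = 0.00256), TFPI2 rose by 0.88 ± 0.28 (adjusted p = 0.0320) and F2R fell by 1.11 ± 0.21 (adjusted p = 0.00375). The PROCR value was 0.65 without the second 24 h library (adjusted p = 0.00541). TFPI2 missed the threshold without that library (0.59, adjusted p = 0.198) and without any one of 12 h (0.79 to 0.94). With scaling by library size alone the TFPI2 value was 0.38 (adjusted p = 0.321).

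From 6 to 24 h 5 members were called, against 42.4% of all genes (22.1% higher and 20.3% lower). TFPI rose by 1.86 ± 0.29 (adjusted p = 0.00042), PROCR by 1.63 ± 0.21 (adjusted p = 0.000155) and PLAU by 0.58 ± 0.16 (adjusted p = 0.0121), the last being -0.035 with scaling by library size alone. F3 fell by 0.87 ± 0.26 (adjusted p = 0.0168) and F2R fell by 1.07 ± 0.21 (adjusted p = 0.00174). The F3 decline was -0.64 without the first 24 h library (adjusted p = 0.0603), and the PLAU increase was 0.47 without the second (adjusted p = 0.0508).

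Of 64 other genes of coagulation, fibrinolysis and cell surface plasmin formation, 36 had enough reads to be tested and 25 reached at most 9 reads in any library. At 6 h 22 were called, 19 higher and 3 lower, at 12 h 15, all higher, and at 24 h 20, with 18 higher and 2 lower, where 52.8%, 51.2% and 61.2% of all tested genes were called. Their median log2 fold change was 0.39, 0.29 and 0.60 at the 3 times, beside -0.0021, -0.033 and -0.065 over all tested genes. Without the second 24 h library 14 were called at 24 h. None of the 4 fibrinogen or fibrinogen-like genes could be tested, and of the 13 coagulation factor genes only F8, F10 and F12 could. These last names were given after their values were seen, as were those of the falling genes and F2RL1 below.

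Among 6 tested inhibitors of fibrinolysis 3 rose at 6 h, 3 at 12 h and 4 at 24 h, and none fell, where 25.1%, 24.2% and 29.9% of all genes were called higher and 27.7%, 27.1% and 31.3% lower. SERPINB8, a serpin named after its values were seen, rose by 0.99 (adjusted p = 0.000299), 0.58 (adjusted p = 0.0104) and 0.74 (adjusted p = 0.00374). It had 370 to 378 reads per library at 0 h and 275 and 365 at 24 h, on similar totals, so its 24 h rise depends on the scaling factors. SERPINB2 and SERPINF2, also named after their values were seen, were scarce. SERPINB2 averaged 1.92 CPM at 0 h and 1.89, 1.69 and 2.24 CPM at 6, 12, and 24 h. SERPINF2 averaged 1.95 CPM at 0 h and 1.50, 1.55 and 1.48 CPM at the later times.

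Of 6 tested genes of plasminogen receptors or clearance 3 were called higher at each time and 1 was called lower at 24 h, against the same shares of all genes. ANXA2 and S100A10, which form a heterotetramer that binds plasminogen and its tissue-type activator, rose by 1.36, 1.54 and 2.17 and by 1.84, 2.04 and 2.97 on the log2 scale. ENO1, a glycolytic enzyme that also serves as a plasminogen receptor, rose by 1.55, 1.93 and 2.58. Scaled by library size alone, ANXA2, S100A10 and ENO1 rose by 1.21, 1.99 and 1.62 at 24 h. The plasminogen receptor PLGRKT, named after its values were seen, differed by -0.08 (adjusted p = 0.756), -0.43 (adjusted p = 0.0849) and 0.40 (adjusted p = 0.128). LRP1, the endocytic receptor that clears urokinase complexes, differed by -0.10 (adjusted p = 0.590) and 0.21 (adjusted p = 0.269) at 6 and 12 h and fell by 0.47 at 24 h (adjusted p = 0.0310).

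Of 8 tested partners of the urokinase receptor, 6 rose at 6 h and 4 at each later time, where 25.1%, 24.2% and 29.9% of all genes were called higher. ITGA5, a subunit of the fibronectin receptor, rose by 2.10, 2.61 and 2.46, with 24 h libraries as far apart as 221 and 536 CPM. CAV1, the coat protein of caveolae, rose by 2.09, 1.86 and 2.31. Scaled by library size alone, ITGA5 and CAV1 rose by 1.68 and 1.33 at 24 h. EGFR fell by 1.05 at 6 h (adjusted p = 0.000586) and fell by 0.69 at 24 h (adjusted p = 0.0138), and differed by -0.05 at 12 h (adjusted p = 0.830).

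Of 10 anticoagulant genes 7 were tested. ANXA5, which shields anionic phospholipid, rose by 1.65, 1.90 and 2.35, the last being 1.47 with scaling by library size alone. At 6 h PROC, the protein C zymogen, fell by 1.07 (adjusted p = 0.00166) and ADTRP, a regulator of TFPI, fell by 0.91 (adjusted p = 0.0348). PROC rose by 0.66 at 24 h (adjusted p = 0.0316) under TMM scaling. Its reads per library were 192 to 271 at 0 h and 173 and 213 at 24 h, on similar totals. The 24 h rise of PROC therefore depends on the scaling factors. VKORC1, the enzyme that recycles vitamin K for clotting factors, rose by 1.18, 1.38 and 2.62. With scaling by library size alone VKORC1 rose by 0.86, 0.91 and 1.52, less than 2-fold at 6 and 12 h. Its exons overlap other annotated genes over 58.0% of their bases on the other strand and 34.7% on the same strand, so its reads are uncertain. The one other protease-activated receptor tested, F2RL1, rose by 2.33, 1.50 and 0.54 at 6, 12, and 24 h, where F2R gave 0.0042, 0.04 and -1.06. F2RL1 had 1356 to 1469 reads per library at 0 h and 860 and 1240 at 24 h, on similar totals. Its 24 h value therefore depends on the scaling factors.

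**Figure D4:**
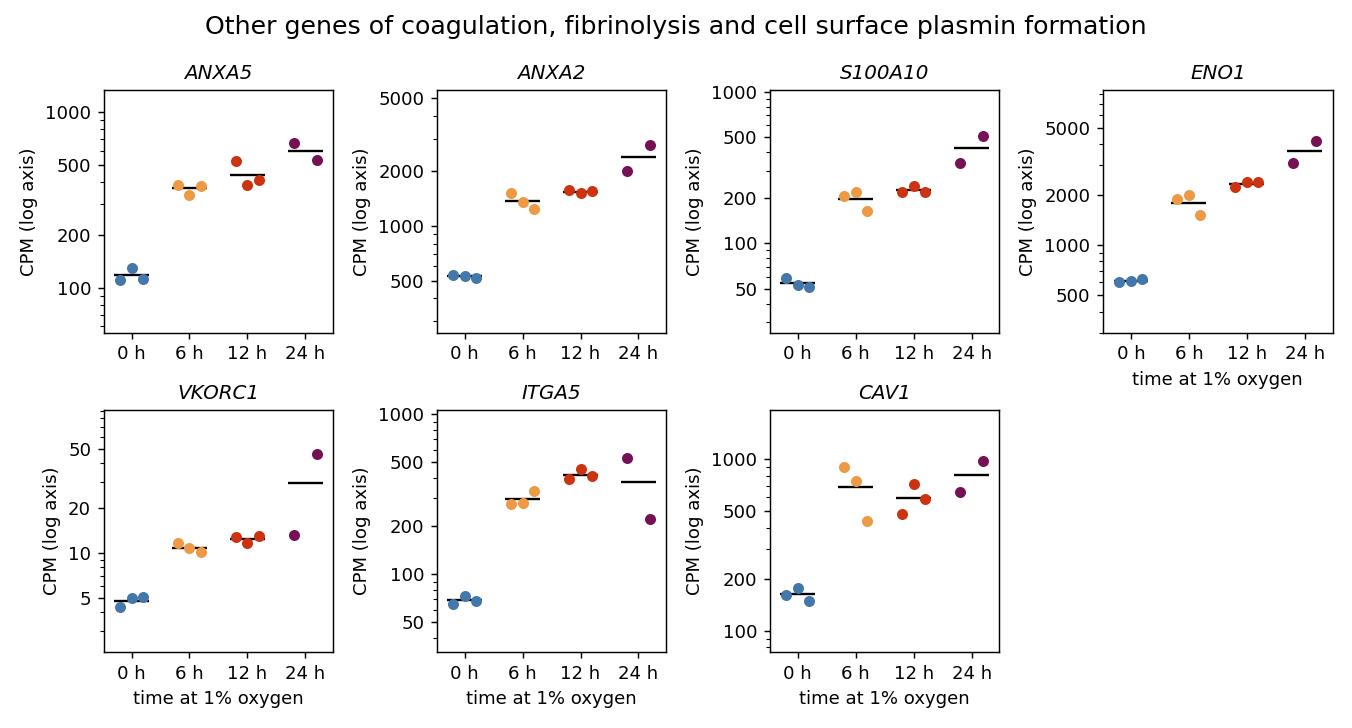
Level in each library, in CPM on a log axis, of the 7 named pathway genes. These were called in 1 direction with a change of over 2-fold at all 3 times under TMM scaling. All 7 are higher in every hypoxic library than in normoxia, and VKORC1 and ITGA5 have the widest spread between the 2 libraries of 24 h.

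The genes whose log2 CPM followed each member most closely over the 11 libraries are given as a description. The libraries share 4 time points, so genes with a like time course reach a high Pearson r. For F3 these were INSIG2 (r = 0.994), ZBED2 (r = 0.992) and PRR5L (r = 0.989), among 11895 candidates. For PLAU they were RHNO1, PTCD2 and MBOAT1, with r from 0.992 to 0.994.

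PROCR was followed by 3 ribosomal protein genes, RPL32, RPL35A and RPSA (r = 0.995 to 0.997), and TFPI2 by GNL3, MED6 and PTP4A2 (r = 0.983 to 0.987). F2R was followed by ZNF525 (r = 0.985) and PARG (r = 0.974), and for TFPI TUBGCP2, FAF1 and SPECC1 (r = 0.932 to 0.959). PLAT was followed by SH3TC2, FOSL2 and EHD2 (r = 0.939 to 0.950), and PLAUR by DEDD2, LMAN2L and SH3TC1 (r = 0.906 to 0.933). THBD had no close match, with ZNF500 at r = 0.744, H2BC26 at 0.699 and LURAP1 at 0.690. Among the members themselves F3 and PLAU had r = -0.964 and F3 and TFPI2 r = 0.916.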

How the data were processed

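RNA from 11 RWPE1 libraries was read as 75-cycle single ends. The authors trimmed reads with Trimmomatic, aligned them to GRCh38 (Ensembl 99) with STAR and deposited raw featureCounts counts per gene. The strand setting and handling of multiply matching reads are not given in the sources used here. All 11 columns were matched to samples by name. Depth was 27496009 to 49488345 reads, and counts limit precision most for TFPI, TFPI2 and PLAT.

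Symbols, positions and union exon lengths came from GENCODE 44 on GRCh38, matching 60357 of 60676 identifiers. edgeR's filterByExpr (minimum count 10, minimum total 15) kept 19981 genes. TMM, estimateDisp, glmQLFit and glmQLFTest took all libraries with time as the only factor, in place of the limma-voom fit of the study, which was an alternative. The SE is the absolute log2 fold change over the square root of F. Ratios added 0.5 to each count. The biological coefficient of variation was 19.6%, and no columns were identical.

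The members and gene lists were chosen with earlier results of these data known. Named pathway genes are those called in 1 direction at all 3 times with an absolute log2 fold change over 1 and a mean of at least 1 CPM. Genes alike in pattern are the 3 protein-coding genes of at least 1 CPM with the highest Pearson r on log2 CPM (prior count 2). Of the ratios 1, and 1 pathway gene and 1 gene alike in pattern are not reported here. Alternatives exchanged the test (limma-voom, with and without sample quality weights, DESeq2), scaling, filter, libraries, ratio pseudocount (2) and replicate block. Scripts were tested on simulated data. The versions used were DESeq2 1.42.0, limma 3.58.1 and edgeR 4.0.16 in R 4.3.3, and scipy 1.17.1, matplotlib 3.10.9, pandas 2.3.3 and numpy 2.4.6 in Python 3.11.15.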

Additional observations from a re-analysis of the deposited data

How the results depend on the processing

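Of 27 called changes of single members, 15 held under each of the 20 alternatives run: F3, PLAU and TFPI2 at all 3 times against 0 h, TFPI at 6 h, PROCR at 12 and 24 h, F2R at 24 h, and TFPI and PROCR from 6 to 24 h. Of 1080 recomputed values, 954 kept direction and side of the threshold, 57 lost the call, 29 gained one and 40 changed sign. Scaling by library size alone moved the median of all tested genes to -0.32, -0.50 and -0.97 at 6, 12, and 24 h against 0 h, and to -0.15, -0.45 and -0.59 between 6 and 12, 12 and 24, and 6 and 24 h. It reversed the called TFPI change at 24 h (-0.012) and the PLAU change from 6 to 24 h (-0.035), both then not called. It ended the PLAUR and PLAT calls at 12 h (0.32 and 0.063) and the PROCR call at 6 h (0.18). Within hypoxia it ended the TFPI and PLAU calls from 6 to 12 h (0.93 and 0.62) and the TFPI2 call from 12 to 24 h (0.38). Among the calls it added were lower levels of THBD at 24 h (-1.17), from 12 to 24 h (-0.79) and from 6 to 24 h (-0.84), and of PLAT at 24 h (-1.03).

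The other sign changes were of values called in neither setting. With library size alone F2R was -0.31 at 6 h and -0.42 at 12 h, TFPI -0.40 and THBD -0.38 at 12 h, PLAUR -0.45 at 24 h, THBD -0.048 and F2R -0.11 from 6 to 12 h, and TFPI2 -0.35 from 6 to 24 h. With at least 10 counts in every library F2R was -0.083 at 6 h and -0.058 at 12 h, TFPI -0.035 and THBD -0.021 at 12 h. F2R at 6 h was also -0.011 with limma-voom, -0.069 with sample quality weights, -0.036 without a filter, -0.0082 with the replicate block and -0.0096 with only the compared times. PLAUR from 6 to 24 h was 0.050 with sample quality weights and 0.060 with the replicate block. Leaving out 1 library at a time gave THBD -0.25 to 0.092 at 6 h, between -0.060 and 0.27 at 12 h, between -0.044 and 0.33 from 6 to 12 h, and between -0.42 and 0.039 from 6 to 24 h. It gave F2R between -0.13 and 0.13 at 6 h, between -0.053 and 0.11 at 12 h and between -0.080 and 0.18 from 6 to 12 h, and PLAUR -0.24 to 0.23 from 6 to 24 h.

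The number of members called against 0 h was between 4 and 6 for 6 and 12 h and between 5 and 7 for 24 h. From 6 to 12 h it was 4 with sample quality weights, 0 with library size alone, 1 with the replicate block and 0 to 3 leaving out 1 library, where 0 came without the second 6 h library or either of the last 2 of 12 h. From 12 to 24 h it was 7 with library size alone and 0 with only the compared times, which leaves 5 libraries in the fit. From 6 to 24 h it was 2 with sample quality weights and 3 with only the compared times. Pathway genes called were 25 at 12 h and 12 at 24 h with sample quality weights, and 17 to 24, 11 to 20 and 14 to 23 leaving out 1 library. The cause of these shifts was not tested where it is not stated.

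Each hypoxic time alone against normoxia cannot pass the threshold in the exact test of ratios. At 6, 12, and 24 h these differences were 5.18, 3.51 and 2.42 for F3 to TFPI, 1.69, 1.73 and 0.50 for F3 to TFPI2, and -3.18, -2.56 and -2.14 for PLAU to PLAT. They were -3.30, -2.81 and -2.71 for PLAU to PLAUR, and -0.55, -0.88 and -2.28 for THBD to PROCR. Leaving out 1 library gave 3.57 to 4.16, 1.14 to 1.63, -2.77 to -2.58, -3.04 to -2.88 and -1.24 to -0.90 in the same order, and without the second or the third normoxic library the adjusted p was 0.0533 for the first 4 and 0.0889 for THBD to PROCR (exact permutation).

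Replicate numbers were not shown to pair samples. Deviations of same-numbered libraries had r from -0.16 to 0.21, and 2 of 15 pairs exceeded 0.1. With the replicate block the ratios were 3.90, 1.47, -2.70, -2.98 and -1.02 (exact sign-flip, adjusted p = 0.25, the smallest 3 numbers allow). The block ended the calls of PROCR at 6 h, PLAT at 12 h, TFPI from 6 to 12 h and TFPI2 from 12 to 24 h.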
